A study of Gallus gallus with 88 samples.

Results

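The small heat shock proteins are low molecular weight chaperones that share the alpha-crystallin domain. They assemble into oligomers, bind partly unfolded proteins without using ATP, and hold them until larger ATP-driven chaperones refold them or the degradation machinery removes them. Several members are known as constitutive proteins of striated muscle, where they associate with the Z-disc, actin, titin and intermediate filaments, while others are induced when cells are heated. The 6 genes described here are HSPB1, HSPB2, HSPB7, HSPB8, HSPB9 and CRYAB. They were taken by gene symbol from the array annotation, which gave exactly 1 probe set for each of them among the 20706 probe sets tested, of which 12300 carried 1 symbol.

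Hind muscle (M. gastrocnemius) of Cobb broilers was profiled on 88 Affymetrix chicken gene arrays, 1 array per animal and 8 animals per group. Eggs were kept at 38.8 °C (H), 36.8 °C (L) or 37.8 °C throughout (C), with the altered temperature given from embryonic day (ED) 7 to 10 (H10, L10) or from ED10 to 13 (H13, L13). Embryos were sampled when the window closed, at ED10 with C10 or at ED13 with C13. Chickens of the same treatments, here D35-H10, D35-L10, D35-H13 and D35-L13, were sampled at 35 days of age, and the 2 C10 and 6 C13 chickens of that age formed 1 group, D35-control. Outside its window every egg was held at 37.8 °C. By the study's methods, humidity was also raised in the high temperature groups, so heat and humidity cannot be told apart. By the same methods the sexes were balanced, but sex is not among the labels.

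In embryos the animal numbers fell into 2 runs, the lower and the higher numbers. At day 35 the 2 runs were 2 ascending series of numbers in the order of the records, and their ranges overlapped. All high temperature animals were in the first run and all low temperature animals in the second, with 4 animals of each control group in each run. Whether the runs follow the repeated incubations of the study is not stated. High and low temperature therefore cannot be told apart from run when they are set against each other. As a check of the tissue label, 16 of 24 sarcomere genes at day 35 and 20 of 24 in embryos had a mean above the 95th percentile of the array's background controls, and 0 of 9 and 1 of 9 skin and feather genes did. The mean of a list of skin and feather markers lay between 5.25 and 5.69 log2 units on day 35 arrays and between 5.89 and 10.34 on embryo arrays. All values are from bulk muscle, in which fewer cells of a type and less RNA per cell cannot be told apart. The altered groups of a window were compared with the same control animals, so H10 and L10 share C10, H13 and L13 share C13, and the 4 altered day 35 groups share D35-control.

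Signal differed widely between probe sets, and the background control probe sets of the array served as a guide. Their 95th percentile, over 23 probe sets, was 9.71 log2 units in embryos and 9.49 at day 35. Most probe sets of the array lay below this level. Of 20706 tested, 4332 had a mean above it in embryos and 2236 at day 35. HSPB1, the classical Hsp27 type chaperone that binds actin filaments, was above this level on 46 of 48 embryo arrays and all 40 day 35 arrays. HSPB8, the partner of BAG3 in chaperone-assisted autophagy, was above it on 44 of 48 and 40 of 40 arrays, and CRYAB, the alpha B-crystallin that binds desmin and titin, on 48 of 48 and 40 of 40. HSPB2, also listed as mkbp, the chaperone that binds the myotonic dystrophy kinase, was above it on 1 of 48 and 0 of 40 arrays. HSPB7, a chaperone of heart and skeletal muscle that binds filamin C, was above it on 0 of 48 embryo arrays and 8 of 40 day 35 arrays. HSPB9, listed in the chicken annotation also as HSP25 and known in human and mouse from testis, was above it on 0 of 48 and 10 of 40 arrays. For HSPB2, HSPB7 and HSPB9 in embryos, differences are thus between signals within the range of the background controls (median 5.61).

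HSPB1 rose between ED10 and ED13 at every temperature, and it was the member with the smallest p-value in each of the 3 comparisons. HSPB1 had a lowest, median and highest log2 signal of 11.28, 11.50 and 11.89 in H13, against 10.29, 10.61 and 11.02 in H10. In L13 the values were 11.06, 11.24 and 11.64, against 9.69, 10.38 and 10.58 in L10. In C13 they were 10.91, 11.42 and 11.70, against 10.20, 10.37 and 10.53 in C10. Within each temperature all 8 ED13 embryos were above all 8 ED10 embryos. The share of all probe sets that separated in this way was not counted. The log2 differences of HSPB1 were 0.92 (SE 0.12) at the high, 1.08 (SE 0.12) at the low and 0.98 (SE 0.12) at the control temperature, with adjusted p of 6.35e-08, 1.67e-09 and 1.39e-08 (limma over all probe sets, Benjamini-Hochberg). These correspond to 1.89-fold, 2.12-fold and 1.97-fold higher signal at ED13. Adjusted p under 0.05 was met in H13 against H10 by 26.6% of all probe sets, in L13 against L10 by 25% and in C13 against C10 by 28.2%, in either direction. Among the 6 small heat shock genes 4, 3 and 4 met it in these comparisons, all of them higher at ED13. Lists of other cell types moved with the same step. The fat list mean was 9.70 in H13 and 8.29 in H10, 9.43 in L13 and 8.26 in L10, and 9.41 in C13 and 8.17 in C10, with 5 of 7 genes higher in each comparison. Of 11 cartilage genes, 3, 9 and 7 were lower for H, L and C and 0 higher. The smooth muscle mean was 9.27 in C13 and 8.75 in C10, and the nerve and Schwann mean 6.87 and 7.16. With group means removed HSPB1 correlated with the fat mean at -0.10 and with the cartilage mean at 0.125 over 48 arrays. It correlated at -0.53 with skin and feather, -0.49 with smooth muscle and -0.38 with nerve and Schwann. For fibroblast and tendon, endothelium, and blood and leukocytes the values were -0.12, -0.17 and -0.03. The part of these cell types in the step was not tested.

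**Figure D1:**
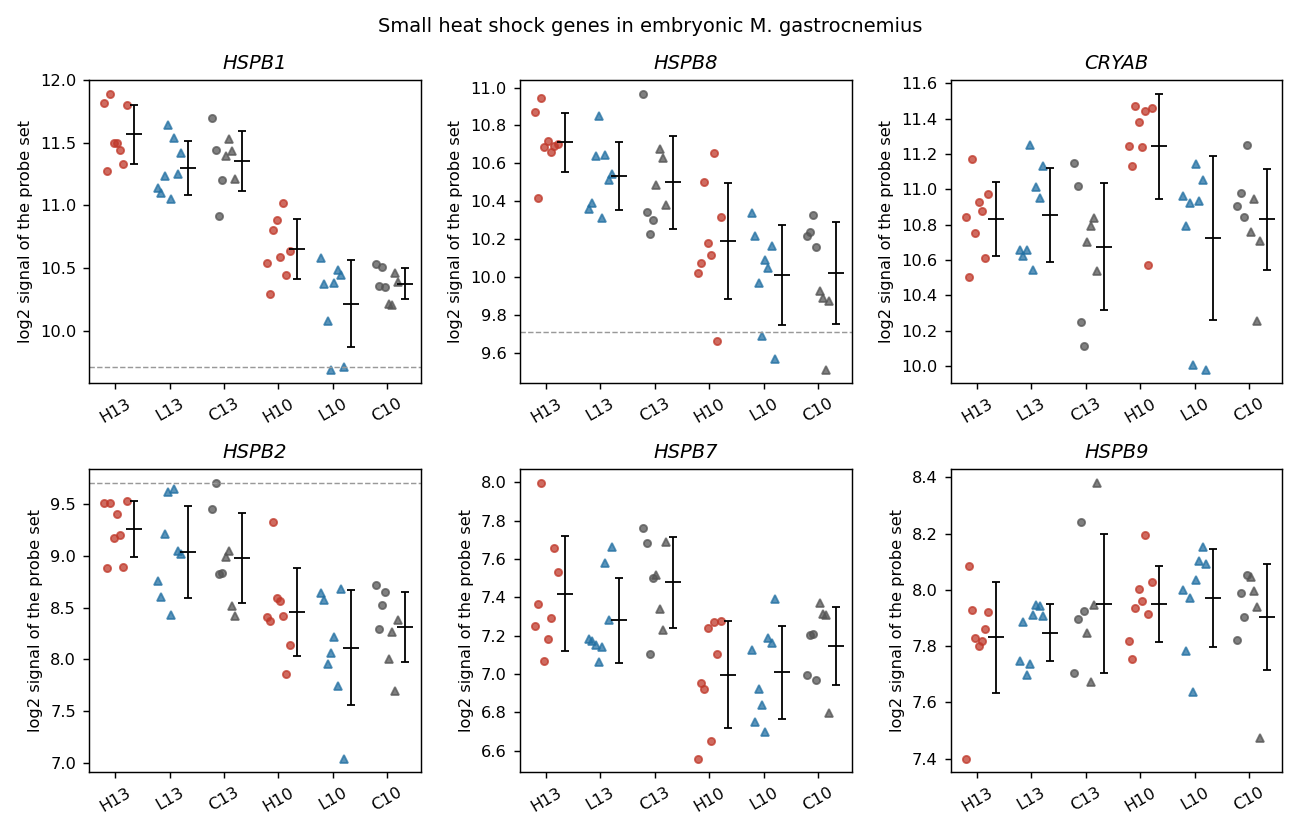
Log2 signal of each small heat shock gene in the 8 embryos of each group (x axis), with ED13 groups left of ED10 groups and the control group last within an age; circles are animals of the first run, triangles of the second, black bars give mean ± SD, and the dashed line is the 95th percentile of background controls (9.71) where it falls inside the axis. HSPB1 shows the step between ED10 and ED13 at each temperature, whereas CRYAB is highest in H10 with a median of 11.31.

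HSPB8 rose by about the same amount at each temperature. Its lowest, median and highest log2 signal was 10.42, 10.70 and 10.94 in H13 and 9.66, 10.15 and 10.66 in H10. The difference was 0.52 (SE 0.12, adjusted p = 0.000721, limma) with 7 of 8 H13 embryos above all H10 embryos. In L13 against L10 it was 0.52 (SE 0.12, adjusted p = 0.000743), with means of 10.53 and 10.01, and in C13 against C10 0.48 (SE 0.12, adjusted p = 0.00153), with means of 10.50 and 10.02. The C13 against C10 difference of HSPB8 was 0.22 among embryos of the first run (adjusted p = 0.459) and 0.74 in the second run (adjusted p = 0.0109, 4 embryos a group). C13 embryos averaged 10.46 in the first run and 10.54 in the second, and C10 embryos 10.24 and 9.80.

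HSPB2 rose too, from signals below the background level. Its lowest, median and highest log2 signal was 8.88, 9.31 and 9.53 in H13, against 7.86, 8.41 and 9.33 in H10. The differences were 0.81 (SE 0.21, adjusted p = 0.00228) for H13 against H10, 0.93 (SE 0.21, adjusted p = 0.000501) for L13 against L10 and 0.66 (SE 0.21, adjusted p = 0.012) for C13 against C10. All 8 ED13 embryos lay above the ED10 mean in each of them, and the groups overlapped. Within the first and the second run the C13 against C10 difference was 0.66 each (adjusted p = 0.102 and 0.0792), and with run as a block over the 16 control embryos it was 0.66 (adjusted p = 0.00392). HSPB2 was lower in the second run by 0.46 log2 units in C10 and in C13.

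HSPB7 changed least of the genes that met the threshold. Its mean log2 signal was 7.42 in H13 and 7.00 in H10, 7.28 in L13 and 7.01 in L10, and 7.48 in C13 and 7.15 in C10, all below the background level. The differences were 0.42 (SE 0.12, adjusted p = 0.00764), 0.27 (SE 0.12, adjusted p = 0.111) and 0.33 (SE 0.12, adjusted p = 0.0365). The C13 against C10 call of HSPB7 was lost in 8 of the 16 fits that left out 1 embryo (C10 replicates 17, 21 and 70, C13 replicates 39, 40, 42, 87 and 91), with differences between 0.28 and 0.33 in those fits. It was also lost within each run, at 0.42 (adjusted p = 0.128) and 0.25 (adjusted p = 0.412), and after quantile normalization (0.34, adjusted p = 0.0608) or centring on array medians (0.33, adjusted p = 0.0952). HSPB9 had means between 7.83 and 7.97 in the 6 embryo groups, and its ED13 against ED10 differences were -0.12 for H, -0.12 for L and 0.05 for C, each with a 95% interval that included 0.

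CRYAB, unlike HSPB1, HSPB2 and HSPB8, was not higher at ED13 past the threshold at any temperature. Its lowest, median and highest log2 signal was 10.51, 10.86 and 11.17 in H13, against 10.57, 11.31 and 11.47 in H10. In L13 they were 10.55, 10.80 and 11.25, against 9.98, 10.93 and 11.15 in L10, and in C13 10.12, 10.75 and 11.15, against 10.25, 10.87 and 11.25 in C10. All 8 H13 embryos lay below the H10 mean, and the difference was -0.41 (SE 0.16, 95% interval -0.73 to -0.09), with an unadjusted p = 0.0135 and an adjusted p = 0.0505 in the limma fit, just outside the threshold. Leaving out H10 replicate 14 or H13 replicate 27 brought it inside, at -0.51 and -0.46, as did quantile normalization (-0.46, adjusted p = 0.0269) and the skin and feather mean as a covariate (-0.48, adjusted p = 0.0046). The corresponding differences were 0.13 (95% interval -0.19 to 0.45) for L13 against L10 and -0.15 (95% interval -0.48 to 0.17) for C13 against C10. Over the 6 genes, the median difference was 0.47 in H13 against H10, 0.40 in L13 against L10 and 0.41 in C13 against C10, beside 0.00, -0.03 and -0.02 over all probe sets.

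The other genes of the pathway were taken from lists of chaperones, factors and partners. HSPB3, the muscle chaperone that forms complexes with HSPB2, was higher by 1.13 (SE 0.18) in H13 against H10, by 0.89 (SE 0.18) in L13 against L10 and by 1.17 (SE 0.18) in C13 against C10, with adjusted p of 2.91e-06, 0.000151 and 1.37e-06. All embryo signals of HSPB3 were below the background level, with group means between 6.78 and 7.99 and a highest signal of 8.58. HSPB3 was also set beside its relatives. It was the only 1 of 3 measured relatives to meet the threshold, and HSPB11 and CRYAA did not. Embryo group means of HSPB11 (8.99 to 9.22) and CRYAA (6.83 to 6.98) were also below the background level. Among 16 measured partners and clients, 5 were higher and 0 lower in C13 against C10, 5 and 0 in H13 against H10, and 6 and 2 in L13 against L10, beside 28.2%, 26.6% and 25% of all probe sets in either direction. They included BAG3, the co-chaperone of HSPB8, at 0.31 (SE 0.06), 0.29 (SE 0.06) and 0.33 (SE 0.06) for H, L and C, and ACTN2, the Z-disc actinin, at 1.04, 0.88 and 1.097. TTN, the giant sarcomere protein titin, gave 0.85, 0.84 and 0.82, and UNC45B, the myosin chaperone, 0.54, 0.64 and 0.52. ACTN2 and TTN are also in the sarcomere list described below.

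The larger chaperones moved in both directions between the ages. Of 21 measured, 4 were higher and 6 lower in C13 against C10, 4 and 6 in H13 against H10, and 2 and 4 in L13 against L10, beside 28.2%, 26.6% and 25% of all probe sets in either direction. HSPA8, the constitutive Hsc70, fell at ED13 by 0.28, 0.21 and 0.29 log2 units for H, L and C, and HSP90AB1, the constitutive Hsp90 beta, fell by 0.46, 0.31 and 0.46. HSPH1, a nucleotide exchange factor of Hsp70, fell by 0.70, 0.62 and 0.73, while HSPA2 was higher by 0.83, 1.17 and 1.23. Of 6 measured genes in the heat shock factor list, 0 were higher at ED13 in any of the 3 comparisons, and 2, 1 and 2 were lower for H, L and C. HSF2 fell by 0.20, 0.30 and 0.36, and HSF5 fell by 0.40 in H13 against H10 (SE 0.13) and by 0.50 in C13 against C10 (SE 0.13). The embryo group means of HSF5 lay between 6.78 and 7.27, below the background level. HSF3, the avian heat-activated factor, had differences of 0.17, 0.03 and -0.04 that did not meet the threshold. Its embryo group means lay between 8.63 and 8.80, also below the background level. HSF1, HSP90AA1 and DES had no probe set under their symbols and were not analysed here.

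The comparison of treated embryos with controls asks for an immediate response to 1 °C more or less. None of the 6 small heat shock genes met the threshold in any of these 4 comparisons. In H10 against C10, 0.13% of all probe sets met it, in L10 against C10 0%, in H13 against C13 0.00966% and in L13 against C13 0.0193%. At an unadjusted p under 0.05 (limma), 2 of 6 genes passed in H10 against C10, where 9.3% of all probe sets did, and 0 of 6 in each of the other 3.

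**Figure D2:**
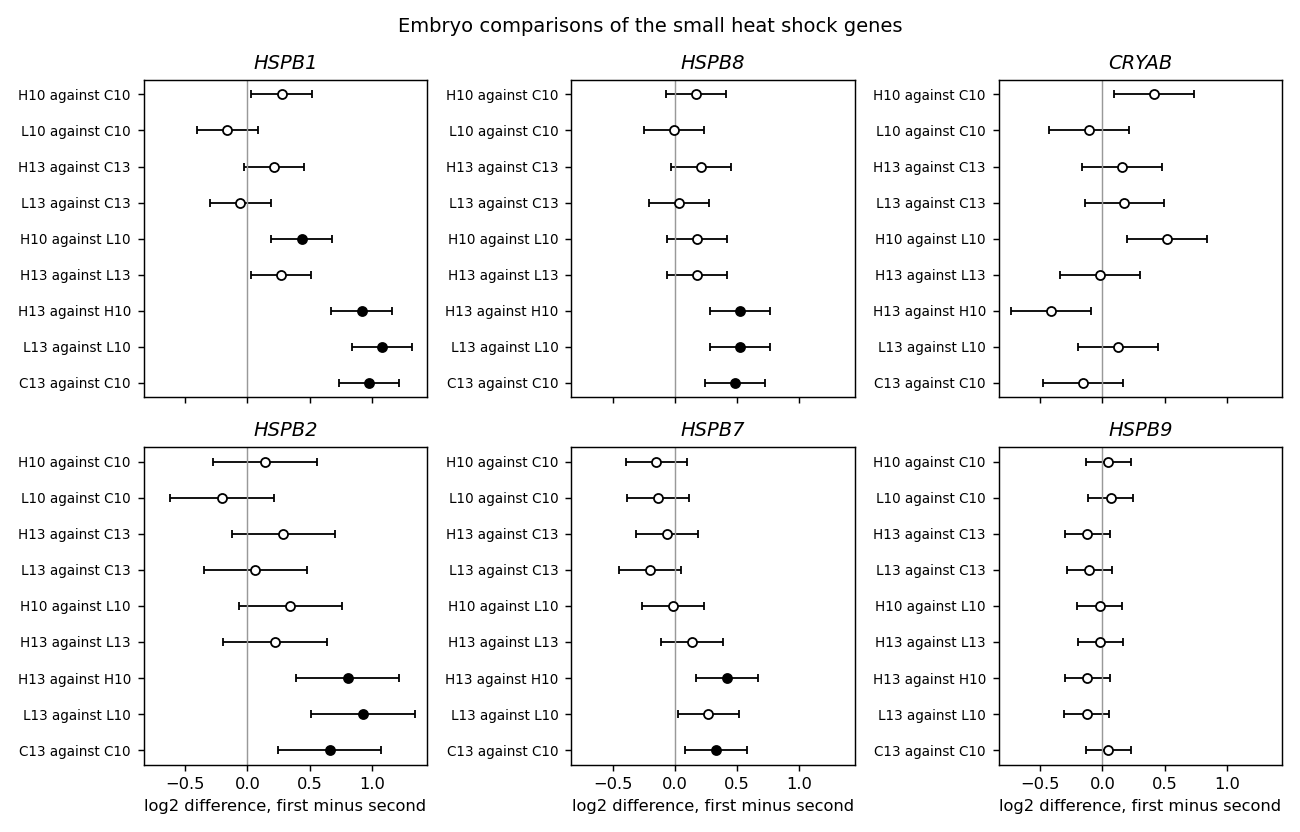
Log2 difference (x axis, first group minus second) with its 95% interval for each small heat shock gene in 9 embryo comparisons (rows); filled points have an adjusted p under 0.05 in the limma fit over all probe sets. The filled points lie in the rows that set ED13 against ED10 for HSPB1, HSPB2, HSPB8 and HSPB7, and in H10 against L10 for HSPB1 at 0.43.

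The 2 genes were CRYAB and HSPB1, both higher in H10. CRYAB had a lowest, median and highest log2 signal of 10.57, 11.31 and 11.47 in H10, against 10.25, 10.87 and 11.25 in C10. Of the 8 H10 embryos, 7 were above the C10 mean and 4 above every C10 embryo, and the remaining H10 embryo, replicate 14, was low. The difference was 0.41 (SE 0.16, 95% interval 0.09 to 0.73), with an unadjusted p = 0.0129 and an adjusted p = 0.367. For HSPB1 it was 0.27 (SE 0.12, 95% interval 0.03 to 0.52, adjusted p = 0.449), and 6 of 8 H10 embryos were above every C10 embryo. Against the 4 C10 embryos of the same run the differences were 0.25 for CRYAB (adjusted p = 0.744) and 0.21 for HSPB1 (adjusted p = 0.719), and with run as a covariate over all embryos 0.35 (adjusted p = 0.449) and 0.26 (adjusted p = 0.454).

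HSPB8 and HSPB2 gave smaller differences in H10 against C10. For HSPB8 the difference was 0.17 (SE 0.12) and for HSPB2 0.14 (SE 0.21). Against C10 embryos of the same run they were -0.05 and -0.09, so neither had a stable direction. In L10 against C10 the 6 differences ranged between -0.20 (HSPB2) and 0.07 (HSPB9), with HSPB1 at -0.16 (95% interval -0.40 to 0.08). Without L10 replicate 61 the HSPB2 difference was -0.05, and without L10 replicate 56 that of HSPB1 was -0.09. The L10 mean was above that of second-run C10 embryos for HSPB2 (8.11 and 8.09) and HSPB8 (10.01 and 9.80). It was also above it for CRYAB (10.72 and 10.67) and HSPB9 (7.97 and 7.86). For HSPB1 (10.22 and 10.32) and HSPB7 (7.01 and 7.20) it was below.

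In the later window the order of the 3 groups was the same for HSPB1. It averaged 11.57 ± 0.24 in H13, 11.30 ± 0.21 in L13 and 11.35 ± 0.24 in C13 (SD, n = 8 each). H13 was above C13 by 0.22 (SE 0.12, adjusted p = 0.537) and L13 below it by -0.06 (95% interval -0.30 to 0.19). HSPB8 was above C13 by 0.21 (SE 0.12, adjusted p = 0.549) in H13 and by 0.03 in L13, and HSPB2 by 0.29 (SE 0.21) and 0.06. HSPB2 averaged 9.21 in first-run C13 embryos, the run of H13 (9.265), and 8.75 in second-run ones, the run of L13 (9.04). For HSPB1, HSPB8 and CRYAB the first run of C13 minus the second was -0.08 each. CRYAB differed from C13 by 0.16 in H13 and 0.18 in L13, with intervals that reached -0.16 and -0.14. The groups overlapped for each of the 6 genes in all 4 comparisons with controls. Overlap was not counted over all probe sets.

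Whether the response differed between the windows was tested as the difference of differences. For the high temperature 0.00966% of all probe sets met the threshold and for the low temperature 0%, and none of the 6 genes did. At an unadjusted p under 0.05 the count was 0 of 6 in both, beside 7.55% and 3.48% of all probe sets. The largest differences among the 6 were -0.25 (SE 0.23) for CRYAB at the high temperature, with a 95% interval of -0.71 to 0.20, and 0.28 (SE 0.23) for CRYAB at the low temperature, with an interval of -0.17 to 0.74.

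High against low temperature spans 2 °C, and here run and temperature cannot be told apart. In H10 against L10, 3.83% of all probe sets met the threshold and 1 of the 6 small heat shock genes did. HSPB1 had a lowest, median and highest log2 signal of 10.29, 10.61 and 11.02 in H10, against 9.69, 10.38 and 10.58 in L10. All 8 H10 embryos were above the L10 mean, 5 were above every L10 embryo, and the difference was 0.43 (SE 0.12, adjusted p = 0.0308). L10 replicates 56 and 61 had the lowest signals, 9.69 and 9.71, with sarcomere list means of 10.24 and 10.16, where the L10 average was 10.59. The call was lost when L10 replicate 55, 56 or 61 or H10 replicate 9, 11, 13 or 16 was left out, with differences between 0.36 and 0.44 in those fits. It was also lost when only these 2 groups entered the fit (adjusted p = 0.18) and with the sarcomere list mean as a covariate (0.27, adjusted p = 0.0881).

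CRYAB came next in H10 against L10. Its difference was 0.52 (SE 0.16, adjusted p = 0.0539), with 6 of 8 H10 embryos above every L10 embryo. Leaving out H10 replicate 14 or L10 replicate 57, 59 or 60 brought it inside the threshold, with differences between 0.55 and 0.61. The same 2 L10 embryos were lowest, at 10.00 and 9.98. In H13 against L13, 2.9% of all probe sets met the threshold and none of the 6 genes did. Only HSPB1 had an unadjusted p under 0.05, at 0.27 (SE 0.12, adjusted p = 0.249), beside 15.7% of all probe sets. CRYAB had a difference of -0.02 there (95% interval -0.34 to 0.30).

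Among the larger chaperones, SERPINH1, the collagen chaperone Hsp47, was higher by 0.26 (SE 0.05, adjusted p = 0.00222) in H10 against L10 and by 0.31 (SE 0.05, adjusted p = 0.000178) in H13 against L13. HSP90AB1 was lower, by -0.21 (SE 0.06) and -0.36 (SE 0.06), and HSPA14, an Hsp70 relative, by -0.45 (SE 0.10) in H13 against L13. In all, 1 of 21 was higher and 1 lower in H10 against L10, and 2 higher and 3 lower in H13 against L13. Of all probe sets, 3.83% and 2.9% met the threshold in either direction, and run and temperature cannot be told apart here. None of the heat shock factors or partners met the threshold in these comparisons.

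By mean log2 signal the embryo groups were ordered H13, C13, L13, H10, C10, L10 for HSPB1, and H13, L13, C13, H10, C10, L10 for HSPB8 and for HSPB2. The place of C10 in the orders of HSPB8 and HSPB2 depended on run. C10 embryos of the first run averaged 10.24 and 8.55, above H10 at 10.19 and 8.46. Those of the second run averaged 9.80 and 8.09, below L10 at 10.01 and 8.11. The place of C13 beside L13 also depended on run. For HSPB8 C13 averaged 10.46 in the first run and 10.54 in the second, beside 10.53 in L13. For HSPB2 the values were 9.21 and 8.75, beside 9.04. For CRYAB the order was H10, L13, H13, C10, L10, C13, with means of 11.24, 10.85, 10.83, 10.83, 10.72 and 10.68. The place of C10 in this order depended on run too, with CRYAB at 10.99 in the first run and 10.67 in the second. Within an age, every pair of neighbours in these orders overlapped, and none of the 6 genes met the threshold in a comparison with controls.

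Across embryos, 4 of the 6 genes varied together with the sarcomere list. It has 24 measured genes of the contractile apparatus. Its mean was 11.55 ± 0.08 in H13, 11.37 ± 0.14 in L13 and 11.38 ± 0.18 in C13, against 10.79 ± 0.22 in H10, 10.59 ± 0.26 in L10 and 10.64 ± 0.23 in C10 (SD, n = 8 each). After group means were removed, the Pearson correlation with this mean over 48 arrays was 0.86 for CRYAB, 0.83 for HSPB2, 0.78 for HSPB8 and 0.66 for HSPB1, and -0.02 for HSPB7 and -0.12 for HSPB9. The myogenic factor list has 8 measured genes and shares none with the sarcomere list. Its mean correlated at 0.83 with CRYAB and HSPB8, 0.75 with HSPB2, 0.65 with HSPB1, 0.11 with HSPB7 and -0.02 with HSPB9. These points share the dissection, the hybridization and the array, and the skin and feather mean ran the other way (-0.58 for CRYAB, -0.53 for HSPB2 and HSPB1, and -0.46 for HSPB8). The part of tissue composition in the differences was not tested, and the covariate fits given here cannot separate it from treatment or age.

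**Figure D3:**
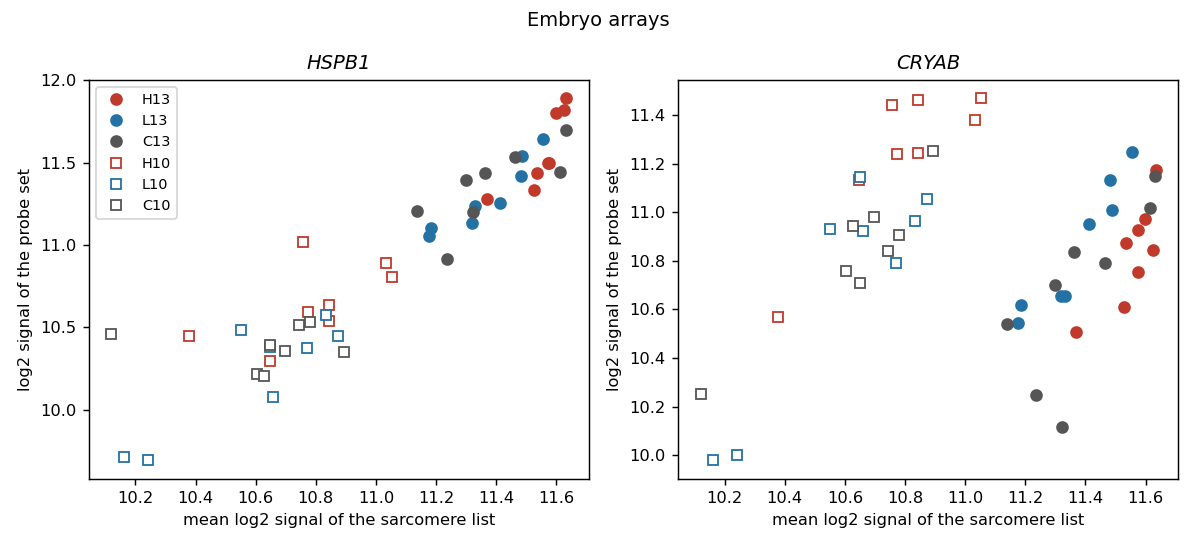
Log2 signal of HSPB1 and of CRYAB (y axes) against the mean log2 signal of the 24 sarcomere genes (x axis), 1 point per embryo; filled circles are ED13, open squares ED10, red H, blue L and grey C. HSPB1 and the sarcomere mean are both higher at ED13 (Pearson r 0.939 over 48 arrays, 0.66 with group means removed). CRYAB forms a separate band for each age, since the sarcomere mean is higher at ED13 and CRYAB is not.

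The sarcomere mean moved with age much as HSPB1 did, and CRYAB is where the 2 measures part. Over all 48 arrays with the groups left in, the correlation with the sarcomere mean was 0.939 for HSPB1, 0.90 for HSPB8, 0.895 for HSPB2 and 0.20 for CRYAB. That of HSPB1 with the fat mean was 0.80 and with the nerve and Schwann mean -0.82. With the sarcomere mean as a covariate, CRYAB was lower at ED13 in each comparison, by -1.50 in H13 against H10, -0.98 in L13 against L10 and -1.22 in C13 against C10 (adjusted p of 7.94e-11, 1.16e-06 and 4.86e-09). HSPB1 kept its call in L13 against L10 (0.44, adjusted p = 0.0327) and lost it in the other 2 comparisons, at 0.28 (adjusted p = 0.219) in H13 against H10 and 0.36 (adjusted p = 0.0729) in C13 against C10. HSPB2 turned to -0.56 (adjusted p = 0.0366), -0.46 (adjusted p = 0.0897) and -0.67 (adjusted p = 0.00628) and HSPB8 to -0.22, -0.23 and -0.24 for H, L and C. The slope in this fit comes from differences within groups, and the ages did not overlap in the sarcomere mean (lowest at ED13 11.14, highest at ED10 11.05), so the values rest on extending that slope across ages.

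The likeness of other genes was described over all genes with a symbol. Over 48 embryo arrays HSPB1 was most like AMPD1, the muscle AMP deaminase (Pearson r 0.96), EEF1A2, the muscle elongation factor (0.955), and SYNC, a partner of muscle intermediate filaments (0.95). HSPB8 was most like SYNPO2L, a Z-disc protein (0.94), MYADML2 (0.93) and POPDC2 (0.93). HSPB2 was most like C11orf52 (0.94), SYNPO2L (0.92) and MYOZ2, a Z-disc protein of slow fibres (0.90). C11orf52 and CRYAB are the neighbours of HSPB2 in the RefSeq annotation of the chicken genome, on its 2 sides. HSPB7 was most like EPN3 (0.779), METTL11B (0.769) and KIFC2 (0.752), HSPB9 like PLEKHG5 (0.59), CROCC (0.58) and TMPRSS13 (0.574), and CRYAB like PENK (0.814), PKIG (0.813) and TMEM8C (0.794). With group means removed C11orf52 stayed first for HSPB2 at 0.89, and CRYAB stood at 0.67, with 168 of 11527 genes more like HSPB2.

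With group means removed CRYAB was most like SMYD1, a methyltransferase of myofibril assembly (0.87), SYNPO2L (0.86) and MYOM1, the M-band myomesin (0.85), and HSPB8 again like SYNPO2L (0.89). HSPB1 was most like MYL9 (0.845), SHISA2 (0.786) and TNNI1 (0.773). HSPB7 was most like MIR1709 (0.796), PGR2/3 (0.795) and LOC422106 (0.792), and HSPB9 like PLEKHG5 (0.679), MASP2 (0.626) and DUOXA2 (0.626). Among the members the correlation was 0.79 for HSPB8 and CRYAB, 0.75 for HSPB1 and HSPB8 and 0.74 for HSPB1 and CRYAB. HSPB7 was at most 0.38 to any other member (HSPB9). These are descriptions over 48 arrays of 1 muscle, and no test was made on them.

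At day 35 the question is whether incubation temperature left a lasting difference. None of the 6 genes met the threshold in a comparison with D35-control. In D35-H10 0% of all probe sets met it, in D35-L10 0%, in D35-H13 0.00483% and in D35-L13 0.0145%. At an unadjusted p under 0.05 (limma) the counts were 0 of 6 in D35-H10, 2 in D35-L10, 1 in D35-H13 and 3 in D35-L13, beside 2.83%, 6.29%, 3.91% and 12.7% of all probe sets.

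HSPB7 had the largest difference of the 6 genes. Its log2 signals in D35-L13 were 8.79, 8.83, 9.04, 9.26, 9.32, 9.83, 9.91 and 11.01, and in D35-control 7.34, 7.35, 7.37, 7.42, 7.69, 8.75, 8.78 and 8.998. All 8 D35-L13 chickens were above the control mean and 6 above every control chicken. The difference was 1.54 (SE 0.47, 95% interval 0.59 to 2.49), a 2.90-fold higher signal, with an unadjusted p = 0.00229 and an adjusted p = 0.169. All 8 controls were below the background level of 9.49, and the D35-L13 mean of 9.50 stood at it. Leaving out single chickens gave differences between 1.32 (without the highest D35-L13 chicken) and 1.68 (without D35-control replicate 70). Against the 4 controls of the same run it was 1.30 (adjusted p = 1), and against the C13 chickens alone 1.35 (adjusted p = 0.514).

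**Figure D4:**
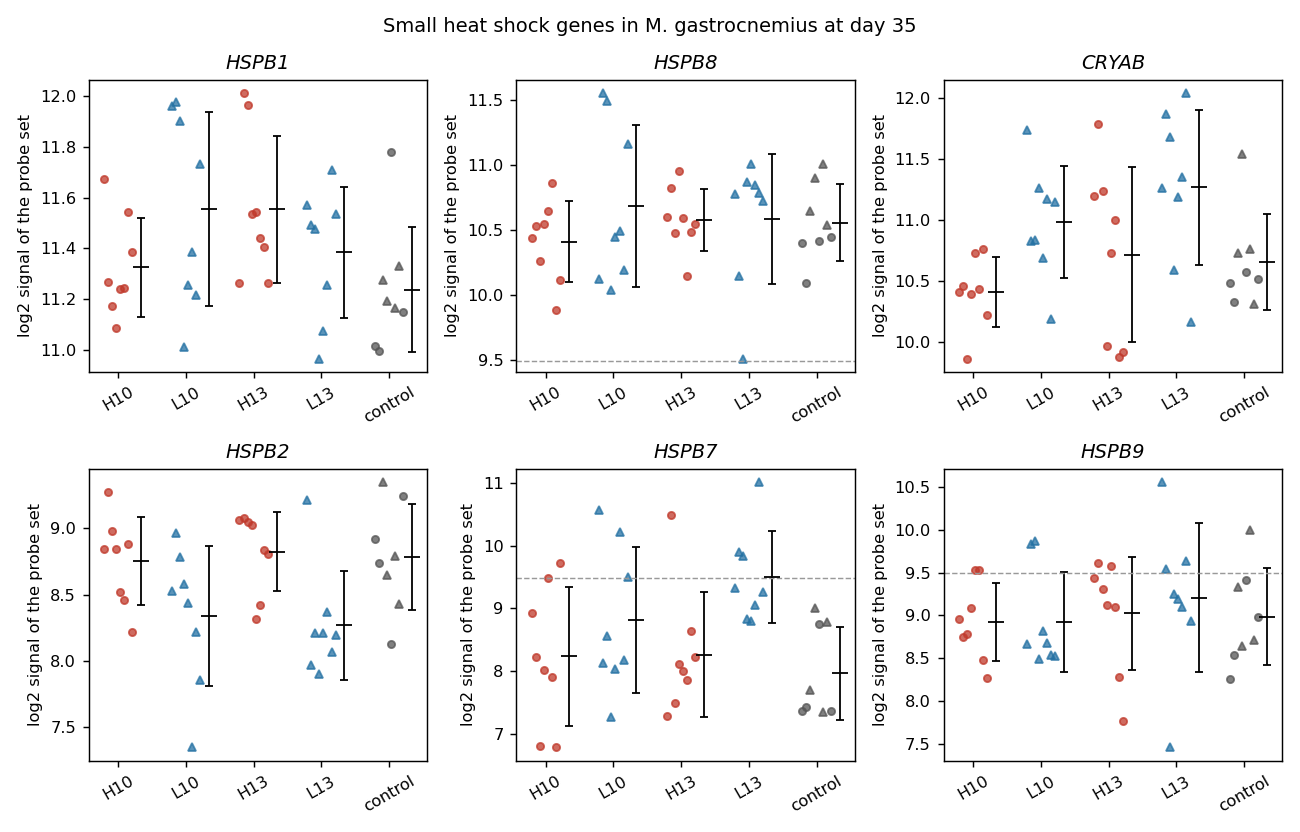
Log2 signal of each small heat shock gene in the 8 chickens of each day 35 group (x axis, with the control group last); circles are animals of the first run, triangles of the second, black bars give mean ± SD, and the dashed line is the 95th percentile of background controls (9.49) where it falls inside the axis. HSPB7 spans 6.78 to 11.01 over the 40 chickens and is highest in D35-L13, where all 8 chickens are above the control mean.

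HSPB7 was also the most variable of the 6 at this age. Its SD within groups was 0.97, above that of 92.9% of all probe sets, whose median was 0.30. The lowest, median and highest signal was 7.26, 8.37 and 10.58 in D35-L10, 7.29, 8.05 and 10.49 in D35-H13 and 6.78, 8.12 and 9.72 in D35-H10. The differences from control were 0.84 (SE 0.47) in D35-L10, 0.30 (SE 0.47) in D35-H13 and 0.27 (SE 0.47) in D35-H10. In D35-H13 it was replicate 34 that stood high at 10.49, and without it the difference was -0.02. Without D35-H10 replicate 74 the D35-H10 difference was 0.06. HSPB7 averaged 7.72 in first-run controls, beside 8.23 in D35-H10 and 8.26 in D35-H13 of that run. In second-run controls it averaged 8.20, beside 8.81 in D35-L10.

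CRYAB was also highest in D35-L13 by mean, with a smaller range. Its lowest, median and highest signal was 10.16, 11.31 and 12.04 in D35-L13 and 10.31, 10.55 and 11.54 in D35-control. The difference was 0.61 (SE 0.26, 95% interval 0.10 to 1.13), with an unadjusted p = 0.0214 and an adjusted p = 0.304. In D35-L10 it was 0.33 (SE 0.26), in D35-H13 0.06 and in D35-H10 -0.24. CRYAB averaged 10.48 in first-run controls, beside 10.41 in D35-H10 and 10.72 in D35-H13 of that run. In second-run controls it averaged 10.84, beside 10.98 in D35-L10. Against controls of the same run the D35-L13 difference was 0.43 (adjusted p = 1).

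HSPB2 stood lower in both low temperature groups. It averaged 8.27 ± 0.41 in D35-L13 and 8.34 ± 0.53 in D35-L10, against 8.78 ± 0.40 in D35-control (SD, n = 8 each). The differences were -0.52 (SE 0.20, adjusted p = 0.265) and -0.44 (SE 0.20, adjusted p = 0.771), and 7 of 8 and 6 of 8 chickens were below the control mean. In D35-H13 and D35-H10 they were 0.04 and -0.03. All day 35 signals of HSPB2 were below the background level.

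HSPB1 averaged 11.55 ± 0.38 in D35-L10, 11.55 ± 0.29 in D35-H13, 11.38 ± 0.26 in D35-L13 and 11.33 ± 0.20 in D35-H10, against 11.24 ± 0.25 in D35-control (SD, n = 8 each). The differences from control were 0.32 (SE 0.14, adjusted p = 0.768) in D35-L10 and 0.32 (SE 0.14, adjusted p = 1) in D35-H13, where all 8 chickens were above the control mean. HSPB8 differed from control by between -0.14 (D35-H10) and 0.13 (D35-L10), and HSPB9 by between -0.06 (D35-H10) and 0.22 (D35-L13), each with a 95% interval that included 0. Within runs the HSPB8 directions turned. Its mean was 10.34 in first-run controls, below D35-H10 at 10.41, and 10.77 in second-run controls, above D35-L10 at 10.69. The HSPB9 direction in D35-H10 turned as well, with a mean of 8.92, above first-run controls at 8.80. The interval of HSPB9 in D35-L13 was -0.41 to 0.86, and its difference lay between 0.03 and 0.47 when 1 chicken was left out.

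Between high and low temperature at day 35, where run again cannot be told apart, 0.222% of all probe sets met the threshold in D35-H10 against D35-L10 and 1.45% in D35-H13 against D35-L13, and none of the 6 genes did. At an unadjusted p under 0.05 there were 2 of 6 and 3 of 6, beside 8.67% and 16.5% of all probe sets. HSPB7 was lower by -1.24 (SE 0.47, adjusted p = 0.17) in D35-H13 against D35-L13, with 7 of 8 D35-H13 chickens below every D35-L13 chicken. Without D35-H13 replicate 34 it met the threshold, at -1.56 (adjusted p = 0.0468). HSPB2 was higher by 0.56 (SE 0.20, adjusted p = 0.14) and met it without D35-L13 replicate 6, at 0.69 (adjusted p = 0.0485). CRYAB was lower by -0.55 (SE 0.26) in D35-H13 against D35-L13 and by -0.57 (SE 0.26) in D35-H10 against D35-L10.

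HSPB7 and CRYAB moved with the slow fibre markers from chicken to chicken. The slow fibre list has 9 measured genes of slow contractile and calcium handling proteins, 6 of which are also in the sarcomere list. Of the 9, 4 had a mean above the background level at day 35, and the lowest, MYL2, averaged 5.37. The list mean was 10.19 ± 1.26 in D35-L13, 9.40 ± 1.26 in D35-L10, 8.58 ± 1.19 in D35-H13 and 8.21 ± 0.84 in D35-H10, against 8.33 ± 0.95 in D35-control (SD, n = 8 each). Its median difference in D35-L13 against D35-control was 1.86, beside 0.03 over all probe sets, with 0 of 9 genes past the threshold. The fast fibre mean was 12.17 ± 0.31 in D35-L13 and 12.44 ± 0.21 in D35-control. With group means removed the Pearson correlation with the slow fibre mean over 40 arrays was 0.81 for HSPB7, 0.68 for CRYAB and 0.50 for HSPB1, against -0.02 for HSPB8, 0.08 for HSPB9 and -0.20 for HSPB2.

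**Figure D5:**
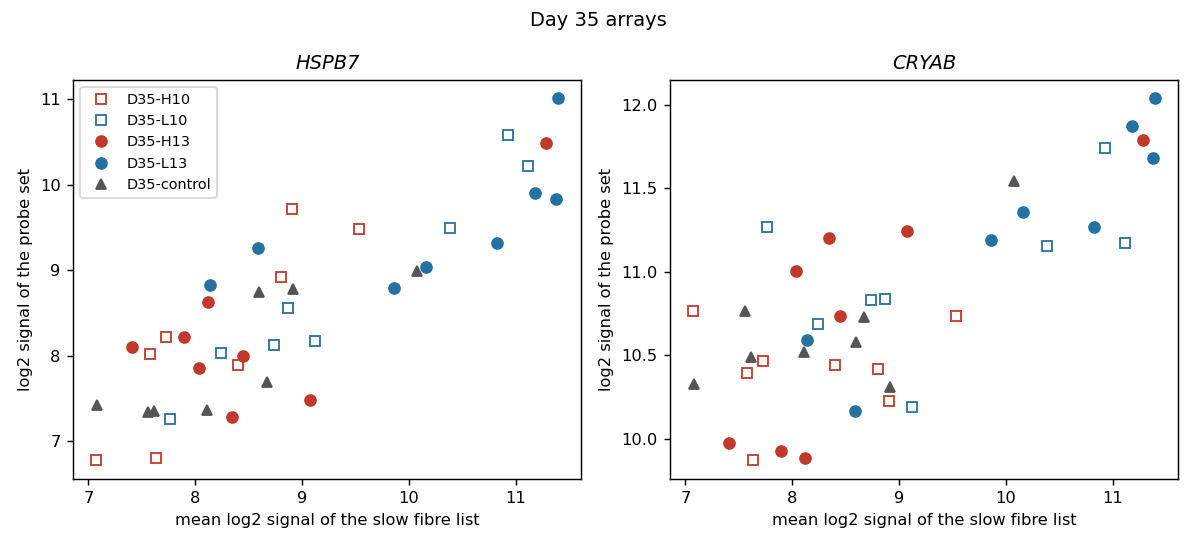
Log2 signal of HSPB7 and of CRYAB (y axes) against the mean log2 signal of the 9 slow fibre genes (x axis), 1 point per chicken at day 35; open squares are the ED7 to 10 window, filled circles the ED10 to 13 window, grey triangles controls, red H and blue L. The chicken with the highest slow fibre mean, 11.40 in D35-L13, also has the highest HSPB7 signal, 11.01, and D35-H13 replicate 34 lies near it at 11.28 and 10.49.

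The chickens with high HSPB7 came from several groups. The 2 highest D35-L10 chickens had HSPB7 signals of 10.58 and 10.22 at slow fibre means of 10.93 and 11.12, and D35-control replicate 70, the highest control for HSPB7 and for CRYAB, had a slow fibre mean of 10.08. With the slow fibre mean as a covariate, an alternative chosen after the values were seen, the D35-L13 against D35-control difference of HSPB7 was 0.23 (SE 0.32, adjusted p = 0.895) and that of CRYAB 0.02 (SE 0.22, adjusted p = 0.99). That of HSPB2 was -0.38 (SE 0.23). The oxidative phosphorylation list mean was 10.72 ± 0.18 in D35-L13 and 10.53 ± 0.09 in D35-control and correlated with HSPB7 at 0.78. The fat list mean was 9.02 ± 0.35 in D35-L13 and 8.53 ± 0.28 in D35-control and correlated with CRYAB at 0.69. The slow fibre mean itself was 10.19 in D35-L13 and 8.33 in D35-control, so the covariate fit cannot separate fibre content from treatment. The part of fibre type and fat in these differences was not tested.

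The genes most like each member at day 35, group means removed, differed from those in embryos. HSPB1 was most like ECI1 (0.70), AMPD3 (0.68) and WLS (0.68), and HSPB2 like EXT1 (0.73), SEC14L1 (0.72) and TPD52L2 (0.71). HSPB8 was most like PXN (0.75), KLF5 (0.73) and LOC416055 (0.72). HSPB7 was most like COX6A1, a cytochrome c oxidase subunit (0.85), SLC16A7, a monocarboxylate transporter (0.85), and ANKRD2, a stretch-responsive muscle protein (0.85). CRYAB was most like DGKH (0.79), FGF12 (0.77) and FHL2, a LIM protein of striated muscle (0.76). HSPB9 was most like KLHL40, a stabilizer of thin filaments (0.77), ATF3, a stress-induced transcription factor (0.76), and XIRP1, an actin-binding muscle protein (0.76), and it went with HSPB8 at 0.62, with 43 of 11527 genes more like HSPB8. HSPB2 and its neighbour CRYAB were not alike at this age (0.01). HSPB7 and CRYAB correlated at 0.39, with 888 of 11527 genes more like HSPB7. No larger chaperone, factor or small heat shock relative met the threshold in D35-L13 against D35-control, where 0.0145% of all probe sets did. Of 16 measured partners, STUB1, a ubiquitin ligase that works with Hsp70, was lower by -0.35 (SE 0.08, adjusted p = 0.0304) in D35-H13 against D35-L13. In that comparison 1.45% of all probe sets met the threshold, and run and temperature cannot be told apart.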

How the data were processed

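The authors deposited 1 normalized signal per probe set and array, on what the values show to be a log2 scale, and the submitters' processing notes name GCOS 1.1.1. The summarization, normalization and genome build are not given in the sources used here. A second deposited table held the same values (largest difference 0). Of 20804 probe sets, 98 controls were left out and 20706 were tested without a filter. With limma 3.58.1 in R 4.3.3, group means were fitted separately over the 48 embryo arrays and the 40 day 35 arrays, followed by eBayes. The Benjamini-Hochberg adjustment ran over all probe sets of a comparison, with a threshold of 0.05. The code was tested on simulated data. Intervals are 95%, and the number of arrays limits their precision. All 6 genes are described whatever their values. Of the lists of relatives, heat shock factors, larger chaperones and partners, up to 3 genes per comparison with the smallest adjusted p past the threshold are named, and BAG3, HSF1, HSF2, HSF3, DES, HSPA8 and HSP90AA1 in any case. The members and lists were chosen with earlier results of these data known. In lists, the probe set with the highest mean stood for a gene. Runs were read from the animal numbers, and at day 35 also from the order of the records. Slaughter weight, a covariate in the study's day 35 models, was not used. Alternatives changed the normalization, the filter on low signals, the eBayes settings, array weights, the samples fitted, the run and controls, and added covariates. Plots were made with Python 3.11.15 and matplotlib 3.10.9.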

Additional observations from a re-analysis of the deposited data

Results flagged for a closer look

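In 7 of 66 combinations of gene and group, 1 of the 8 animals stood apart from the rest by more than Dixon's 95% critical share of the range of its group, which chance gives in about 1 of 20 groups. At day 35 these were HSPB7 in D35-H13 (replicate 34, 10.49 where the next was 8.64, gap 0.579 of the range), HSPB2 in D35-L13 (replicate 6, 9.21 where the next was 8.37, gap 0.642), CRYAB in D35-control (replicate 70, 11.54 where the next was 10.77, gap 0.629) and HSPB1 in D35-control (replicate 77, 11.78 where the next was 11.33, gap 0.574). The slow fibre list means of these animals were 11.28, 10.83, 10.08 and 8.59. In embryos they were CRYAB in H10 (replicate 14, 10.57 where the next was 11.13, gap 0.625), with the lowest sarcomere list mean of its group at 10.38, and HSPB9 in C10 (replicate 70, gap 0.603) and H13 (replicate 25, gap 0.585), both the lowest of their groups. No gene had all animals of one treatment on one side of its controls and all animals of another on the other side.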

How the results depend on the processing

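The counts of small heat shock genes past the threshold stayed at 0 under every alternative run in the comparisons of treated animals with controls at either age, in the differences between windows and in D35-H10 against D35-L10. In L13 against L10 the count stayed between 2 and 4. In H10 against L10 the count of 1 became 2 under quantile normalization, centring on array medians, a filter on dim probe sets, eBayes with a trend and a robust prior, array weights and the skin and feather covariate (CRYAB joined), and 0 with only these groups in the fit or the sarcomere covariate. It ranged between 0 and 2 when 1 embryo was left out, and in the same fits C13 against C10 between 3 and 4 and H13 against H10 between 4 and 5. In H13 against L13 it became 1 with array weights. In C13 against C10 the count of 4 became 2 without dim probe sets, which removes HSPB2, HSPB7 and HSPB9, 2 with the sarcomere covariate (HSPB2 and CRYAB, both lower at ED13), 1 within the first run and 2 within the second. In H13 against H10 it became 2 with the sarcomere covariate, the same genes and again lower at ED13. In D35-H13 against D35-L13 it ranged between 0 and 1 when 1 chicken was left out. With the sarcomere covariate, the ED13 against ED10 differences of HSPB2 turned to -0.56, -0.46 and -0.67, those of HSPB8 to -0.22, -0.23 and -0.24 (H, L and C) and that of CRYAB to -0.98 in L13 against L10. The cause was not tested. Of 73 differences whose 95% interval included 0, 42 changed sign in at least 1 fit, and of these only the CRYAB value just given was called. Each gene had 1 annotated probe set, so the alternative of other probe sets was not run. No paired analysis was possible because each array was from a different animal.

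Limits are the signal and run, which cannot be told apart from high against low temperature. In embryos the signal was within the background range for HSPB2, HSPB7 and HSPB9 and the listed HSPB3, HSPB11, CRYAA, HSF3 and HSF5. The study used repeated incubations that the labels do not give. Array medians lay between 7.90 and 8.29 over embryos and were not centred in the reported values. Humidity changed with high temperature. Sex, and the fibre content of each sample, are not in the labels.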
